A study of Mus musculus with 11 samples.

Results

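The insulin-like growth factor (IGF) system was followed as 10 genes, Igf1, Igf2, Igf1r, Igf2r and Igfbp2 through Igfbp7, which were chosen by name from all genes of the deposited count tables. The counts came from single-cell RNA sequencing (10x Genomics 3' v3 chemistry) of right brain tissue from 11 mice, with 1 library per mouse. After sham surgery there were 3 wild-type mice (sham + WT) and 3 Lrg1 knockout mice (sham + Lrg1-/-). After middle cerebral artery occlusion and reperfusion (MCAO/R) there were 2 wild-type mice (MCAO/R + WT) and 3 Lrg1 knockout mice (MCAO/R + Lrg1-/-). MCAO/R blocks a cerebral artery with a filament and then restores flow, and sham surgery leaves the artery open. Lrg1 encodes a secreted glycoprotein, and the knockout was conventional, so that the gene was missing from every cell of the body and not from 1 cell type. Per the study's methods, WT mice were male C57BL/6 animals of 8 to 10 weeks from an outside breeder. Lrg1-/- mice were 3 months old and were bred in a colony of their own. Their background is given as C57BL/6N, and in another place as C57BL/6J, while no substrain is given for the WT mice. The filament was in place for 1 h as the surgery is described. The methods list several reperfusion times, up to a day, and do not say which the sequenced mice had. The paper's discussion calls the studied effects of the knockout short-term, at 1 h. The comparisons asked where the IGF ligands, receptors and binding proteins were expressed in the brain, and how their levels differed with ischemia and with Lrg1 genotype.

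In the IGF system, the peptide ligands IGF1 and IGF2 bind the receptor tyrosine kinase IGF1R, which signals through insulin receptor substrates to PI3K, AKT and mTOR and restrains FOXO transcription factors. IGF2R, the cation-independent mannose 6-phosphate receptor, takes IGF2 and lysosomal enzymes to the lysosome and carries no kinase. IGF-binding proteins hold the ligands in the extracellular space, where they prolong ligand life, block receptor access or, after cleavage by proteases such as pappalysins, release the ligand. In the brain, IGF1 is known as a factor from microglia, macrophages and neurons, whereas IGF2 is known from the meninges, the choroid plexus and vessel walls.

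After removal of low-quality cells and doublets, 124497 cells remained. Of these, 31122 were from sham + WT, 17284 from sham + Lrg1-/-, 21068 from MCAO/R + WT and 55023 from MCAO/R + Lrg1-/- mice. Libraries held 37159497 to 171813031 unique molecular identifiers (UMIs, each standing for 1 captured transcript). Cells were sorted into 19 marker-defined classes, 18 of which could be tested. Each class is to be read as microglia-like, endothelial-like and so on, since names were rebuilt from marker lists and the 10 IGF genes were kept out of the clustering. A share of 19.3% of cells remained unnamed, and it was 6.22% in sham + WT, 24.9% in sham + Lrg1-/-, 0.674% in MCAO/R + WT and 32.1% in MCAO/R + Lrg1-/-. Lrg1 itself had 178 to 650 UMIs in the sham + WT libraries and 17112 and 15460 in the MCAO/R + WT libraries. It had 0 in 5 Lrg1-/- libraries and 1 in the other. The MCAO/R + Lrg1-/- replicates 1 and 2 carried the X-inactivation transcript Xist at 355 and 468 CPM (UMIs of a gene per 1000000 UMIs) and the Y-linked Ddx3y under 0.5 CPM. The other 9 libraries had Xist at 1.16 CPM or less and Ddx3y at 105 CPM or more. RNA of other cells was unequal between genotypes. Haemoglobin transcripts outside the erythroid class had a median of 25.5 CPM in sham + WT and 17.6 CPM in MCAO/R + WT, against 18843 CPM in sham + Lrg1-/- and 20257 CPM in MCAO/R + Lrg1-/-. Choroid plexus transcripts outside the choroid plexus had medians of 579, 315, 14055 and 5518 CPM in sham + WT, MCAO/R + WT, sham + Lrg1-/- and MCAO/R + Lrg1-/-. No pair of libraries shared more than 146 cell barcodes, or 1.15% of the smaller library. Genotype cannot be told apart from mouse source, age and possibly substrain, and the genotype comparisons below are differences between these sets of libraries. The lowest UMI count of a deposited barcode was 500 in all WT libraries and in MCAO/R + Lrg1-/- replicates 2 and 5. It was 551 to 770 in the remaining Lrg1-/- libraries, which held 15500, 9000, 5650 and 8500 barcodes. The part of this difference in the genotype comparisons was not tested. By Xist and Ddx3y, the MCAO/R + Lrg1-/- replicates 1 and 2 had the pattern of females and the other 9 libraries that of males. Sex was thus partly mixed with genotype after MCAO/R, with surgery in Lrg1-/- mice and with the interaction of genotype and surgery.

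Levels are given as CPM, with the UMIs of a gene summed over the cells of 1 class in 1 library. They stand in the order of the replicate numbers, for libraries with at least 20 cells of the class. Differences are log2 fold changes from edgeR, fitted for all genes of a class over all 4 groups, with the standard error (SE) and the Benjamini-Hochberg adjusted p. Where other processing ended a call of an IGF gene in a whole class or moved its fold by over 1.5 times, the value is given beside it. Calls of pathway genes and of parts of a class, such as vessel segments, were not recomputed under other processing. Such processing was a coarser clustering (15 components), neighbours not balanced over libraries, doublets kept, under 10% mitochondrial UMIs, at least 50 cells a library, no filter on low counts, or DESeq2. A gene is said to have risen or fallen where the adjusted p was under 0.05 and the natural-log fold over 0.25. Positions are on the mouse genome (GRCm38). Igf1 lies on chromosome 10 (87858265-87937042), and Igf1r and Igf2 on chromosome 7 (67952827-68233668 and 142650766-142666816). Igf2r lies on chromosome 17 (12682406-12769664), and Igfbp2 and Igfbp5 lie side by side on chromosome 1 (72824503-72852474 and 72857932-72874884). Igfbp3 and Igfbp4 lie on chromosome 11 (7206086-7213923 and 99041244-99054392), with Igfbp6 on chromosome 15 (102144362-102149511) and Igfbp7 on chromosome 5 (77349240-77408041).

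Among the ligands, Igf1 was highest in border-associated macrophages, the resident macrophages of meninges, perivascular spaces and choroid plexus. Its mean there was 211 ± 78.7 CPM (SD, n = 11), and the lowest, median and highest libraries had 118, 179 and 329.5 CPM. Fibroblasts came next at 18 ± 10.8 CPM (SD, n = 7) and then microglia at 10.4 ± 14.8 CPM (SD, n = 11). Within sham + WT, the microglial mean (2.51 CPM) was below those of monocytes (5.42 CPM) and choroid plexus epithelial cells (3.76 CPM). No fibroblast library reached the lowest macrophage library, whereas fibroblasts and microglia overlapped. In sham + WT mice, where macrophages made up only 716 cells, they held 79.4% of all Igf1 UMIs of a library on average and microglia held 12%. After MCAO/R these shares were 48.7% and 42.5% in WT mice, and 14.4% and 56.8% in Lrg1-/- mice. Shares of this kind, here and below, are of the captured cells and not of the brain. They depend on the number of cells captured in each class. The total includes unnamed cells, which were 0.674% of cells in MCAO/R + WT and 32.1% in MCAO/R + Lrg1-/-. Neuronal lineage cells made up only 2520 of the 124497 cells, and the paper states that some neurons are hard to capture.

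Igf2 was highest in fibroblasts at 404 ± 192 CPM (SD, n = 7) and in choroid plexus epithelial cells at 279 ± 68.6 CPM (SD, n = 11), which overlapped each other. Pericytes, the mural cells of capillaries, followed at 52.8 ± 23.4 CPM (SD, n = 11), and none of their libraries reached the lowest choroid plexus library. Choroid plexus cells held 53.2% of the Igf2 UMIs in sham + WT, 60.7% in sham + Lrg1-/-, 24.5% in MCAO/R + WT and 57.7% in MCAO/R + Lrg1-/-. Fibroblasts held 38.5% in MCAO/R + WT.

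Among the receptors, Igf1r was highest in endothelial cells, which line the vessels, at 1809 ± 551 CPM (SD, n = 11). The lowest, median and highest endothelial libraries had 973, 2027 and 2685 CPM, and no library of neutrophils, next in order at 813 ± 117 CPM (SD, n = 5), reached the lowest of these. Neuronal lineage cells followed at 634 ± 171 CPM (SD, n = 11) and overlapped neutrophils. Endothelial cells held 71.7% of all Igf1r UMIs in sham + WT, 73.3% in sham + Lrg1-/-, 65.1% in MCAO/R + WT and 50.6% in MCAO/R + Lrg1-/-. Igf2r had no such class and was spread over pericytes (77 ± 28.8 CPM, SD, n = 11), T cells (58.9 ± 23.2 CPM, SD, n = 9) and ciliated ependymal cells (50.9 ± 13.3 CPM, SD, n = 11), whose libraries overlapped.

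Each binding protein had its own distribution. Igfbp2 was led by choroid plexus epithelial cells at 1555 ± 227 CPM (SD, n = 11) and fibroblasts at 1130 ± 648 CPM (SD, n = 7). Ciliated ependymal cells followed at 230.4 ± 83.7 CPM (SD, n = 11), none of whose libraries reached the lowest fibroblast library. Within sham + WT, the Igfbp2 mean of astrocytes (177 CPM) was above that of ciliated ependymal cells (125 CPM). Igfbp5, a binding protein that attaches to matrix, was highest in fibroblasts at 637 ± 273 CPM (SD, n = 7). Neuronal lineage cells followed without overlap at 201 ± 84 CPM (SD, n = 11), and then astrocytes at 90.1 ± 46.7 CPM (SD, n = 11). Igfbp4 was led by fibroblasts (643 ± 494 CPM, SD, n = 7), vascular smooth muscle cells (259 ± 98 CPM, SD, n = 11) and border-associated macrophages (212 ± 117 CPM, SD, n = 11), all overlapping. Igfbp3, the main carrier of IGFs in plasma, was led by endothelial cells at 123 ± 112 CPM (SD, n = 11), fibroblasts at 85.4 ± 143 CPM (SD, n = 7) and oligodendrocyte precursor cells at 22.1 ± 14.6 CPM (SD, n = 3). Igfbp6, which prefers IGF2, was led by fibroblasts at 293 ± 213 CPM (SD, n = 7), neutrophils at 176 ± 70.8 CPM (SD, n = 5) and monocytes at 25.9 ± 35.5 CPM (SD, n = 7). Its sham + WT mean was 129 CPM in fibroblasts and 0 CPM in monocytes, and the only neutrophil library of that group had 57.1 CPM. Igfbp7, which binds IGFs weakly and is a vessel-wall matrix protein, was led by vascular smooth muscle cells at 3703 ± 751 CPM (SD, n = 11), pericytes at 2940 ± 545 CPM (SD, n = 11) and endothelial cells at 2402 ± 1228 CPM (SD, n = 11). Its sham + WT mean was higher in fibroblasts (2438 CPM) than in endothelial cells (1427 CPM).

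**Figure D1:**
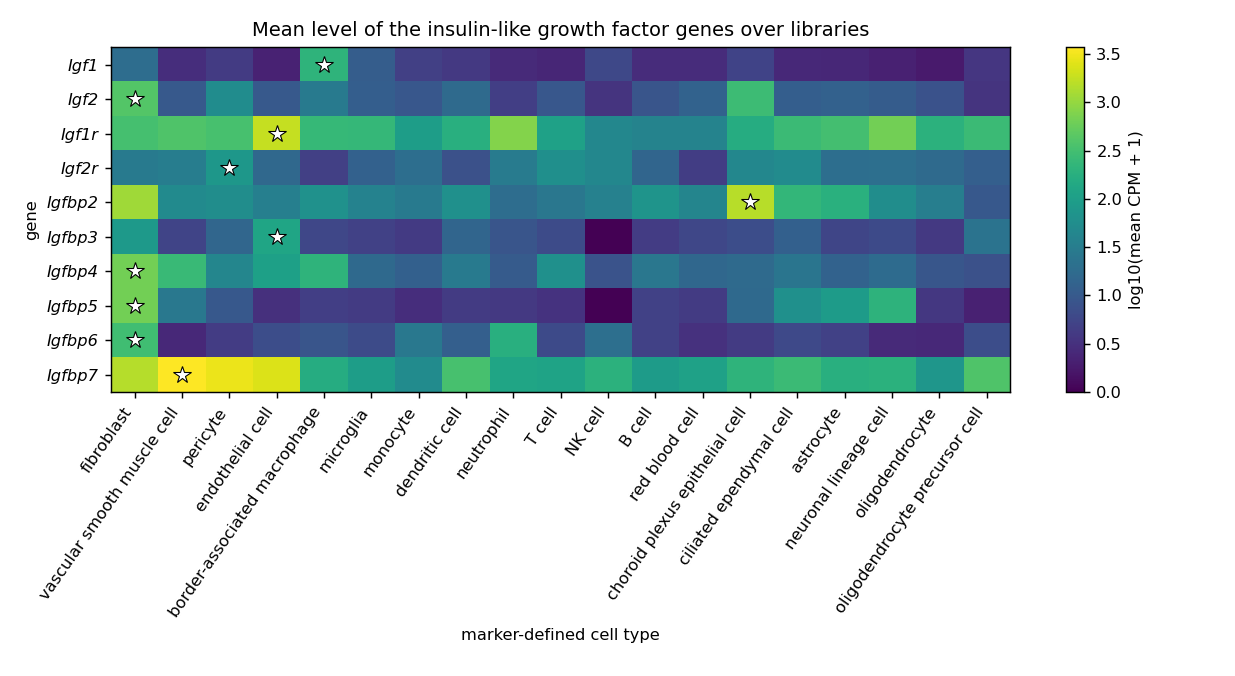
Mean level (CPM, colour scale on a log axis) of each of the 10 IGF genes (rows) in each cell class (columns), over all libraries with at least 20 cells of the class. Igf1 stands out in border-associated macrophages (mean 211 CPM), Igf1r in endothelial cells (mean 1809 CPM), and fibroblasts lead for Igf2 and for Igfbp4, Igfbp5 and Igfbp6.

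The genes most like Igf1 across the 16 classes of sham + WT mice, by Pearson's r of mean log2(CPM + 1) among 9351 genes, were Ccl8 (r = 0.94), Gpx3 (0.93), Pf4 (0.92), Pla2g2d (0.91) and Cd209f (0.89). For Igf2 these were Wdr86 (0.92), Npr3 (0.91), Bmp4 (0.90), Hs6st2 (0.90) and Pcolce (0.88). The classes of a library share its depth and free RNA, so these r values only describe the pattern.

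After MCAO/R in WT mice, 19 of 120 pairs of IGF gene and class passed the test, in a background where 7.81% of all gene and class pairs passed. Of these pairs, 14 were higher and 5 lower (backgrounds 3.98 and 3.83%). Lrg1-/- mice had 25 of 120 (background 9.34%), 17 higher and 8 lower (5.3 and 4.03%). Lrg1-/- against WT gave 24 of 115 after sham surgery (background 9.65%), 22 higher and 2 lower (4.82 and 4.83%). After MCAO/R it gave 33 of 122 (background 15.1%), 27 higher and 6 lower (8.07 and 7.07%). The interaction, which asks whether the MCAO/R effect differed between genotypes, passed for 2 of 107 pairs (background 1.07%), both lower (0.47% of all pairs, and 0.598% higher). They were Igf1r in endothelial cells (class background 3.73%) and Igfbp4 in vascular smooth muscle cells (0.748%). The median log2 fold change over the tested pairs of IGF genes was 0.16, 0.06, 0.68 and 0.59 in the 4 comparisons in this order, and -0.09 for the interaction. Over all gene and class pairs it was 0.0016, 0.0097, -0.0051, 0.021 and 0.030. Comparisons that use a same group share its libraries and are not independent of each other.

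By class, the counts of IGF genes tested stand here in the order of the 4 comparisons, MCAO/R in WT and in Lrg1-/- mice and genotype after sham surgery and after MCAO/R. In endothelial cells 4, 6, 4 and 7 of 10 passed, against 16.9, 23.8, 14.5 and 33.9% of all genes. In microglia 5, 5, 5 and 5 of 10 passed, against 14.9, 28.3, 25.6 and 22.5% of all genes. In border-associated macrophages 4, 3, 1 and 4 of 10 passed, against 8.14, 10.1, 3.18 and 20.4% of all genes. Vascular smooth muscle cells followed, where 4, 5, 2 and 3 of 10 passed, against 12.9, 13.6, 7.94 and 14.5% of all genes. In oligodendrocytes 1, 0, 3 and 5 of 10 passed, against 25.2, 14.7, 15.8 and 28.8% of all genes. In pericytes 1, 1, 2 and 0 of 10 passed, against 2.78, 2.05, 9.92 and 17.5% of all genes. In choroid plexus epithelial cells 0, 2, 1 and 2 of 10 passed, against 1.89, 2.94, 16.6 and 29.1% of all genes. For the 2 genotype comparisons alone, 2 and 3 of 8 passed, against 2.32 and 6.47% of all genes in neuronal lineage cells. Ciliated ependymal cells followed, where 1 and 3 of 9 passed, against 1.1 and 6% of all genes. In B cells 1 and 2 of 4 passed, against 0.906 and 9.22% of all genes, after MCAO/R in Lrg1-/- mice and for genotype after sham surgery. Among monocytes of Lrg1-/- mice 2 of 4 passed, against 1.35% of all genes. In B cells and monocytes the sham + Lrg1-/- arm was 1 library, so it has no replicate check and was assumed to vary like the other groups. In astrocytes 1 of 7 passed, against 2.74% of all genes for genotype after sham surgery, and in fibroblasts 1 of 9 passed, against 0.324% of all genes for genotype after MCAO/R. Where one of the 4 comparisons was tested but is not listed for a class, no IGF gene passed. None passed in T cells, dendritic cells, neutrophils, oligodendrocyte precursor cells or red blood cells either.

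**Figure D2:**
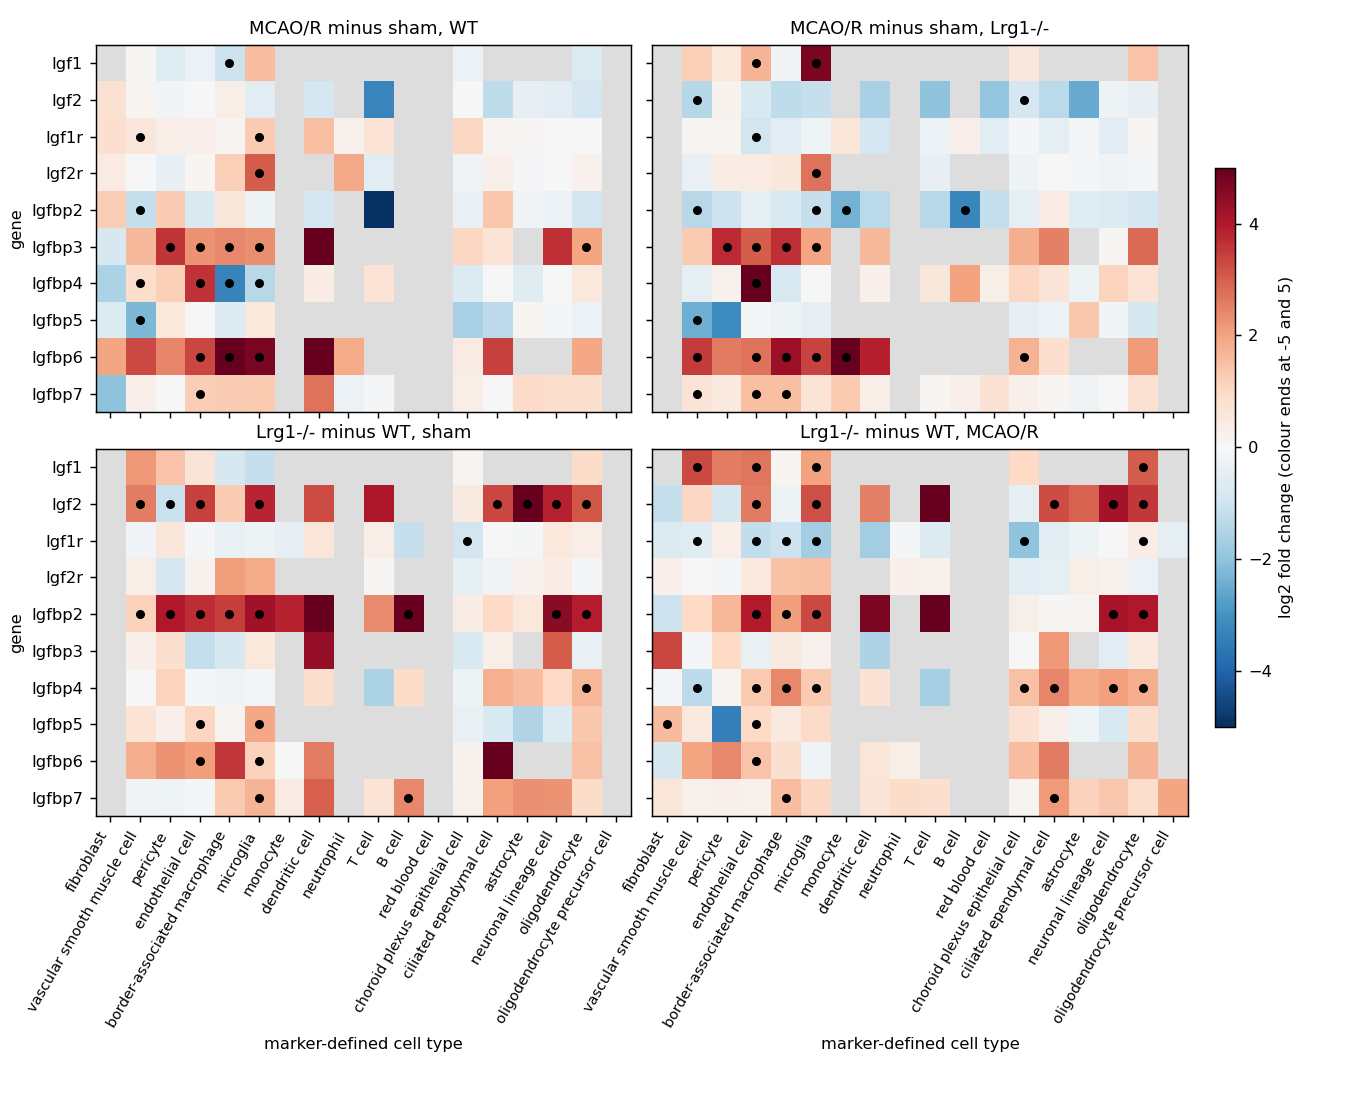
Log2 fold change (colour) of each IGF gene (rows) in each tested cell class (columns) in the 4 comparisons. Black dots mark pairs that passed the test, and grey marks pairs that were not tested. MCAO/R raised Igfbp3, Igfbp4, Igfbp6 and Igfbp7 in endothelial cells of both genotypes, and Igf1r in endothelial cells was lower in Lrg1-/- than WT mice after MCAO/R (log2 fold change -1.24).

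Igf1 in border-associated macrophages fell after MCAO/R in WT mice. Its levels were 312, 329.5 and 316 CPM in sham + WT and 149 and 157 CPM in MCAO/R + WT (log2 fold change -1.08, SE 0.25, adjusted p = 0.0142), and the groups did not overlap. In Lrg1-/- mice the levels were 179, 258 and 118 CPM after sham surgery and 164, 133 and 205 CPM after MCAO/R. These ranges overlapped, and the change did not pass the test (-0.19, SE 0.24, adjusted p = 0.66). Neither the sham genotype comparison (-0.80, SE 0.23, adjusted p = 0.0718) nor the interaction (0.89, SE 0.34, adjusted p = 0.288) passed. After thinning each cell to 1000 UMIs, the share of macrophages with an Igf1 UMI was 20.7% in sham + WT, 16.5% in sham + Lrg1-/-, 11.6% in MCAO/R + WT and 12.1% in MCAO/R + Lrg1-/-. Unthinned shares were 64.4, 52.2, 45 and 42.3%. In T cells, which are not a source of Igf1, the thinned share was 0, 0, 0 and 0.185% in the same order. The call in WT mice was lost without any 1 of sham + WT replicate 3 and MCAO/R + WT replicates 1 and 2 (adjusted p = 0.0501 to 0.0709).

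In microglia, the resident macrophages of brain tissue, Igf1 rose after MCAO/R in Lrg1-/- mice. Its levels were 0.835, 1.67 and 1.57 CPM in sham + Lrg1-/- and 13.7, 48.3 and 26.4 CPM in MCAO/R + Lrg1-/- (log2 fold change 4.71, SE 0.61, adjusted p = 0.000303), with every MCAO/R library above every sham library. In WT mice the levels were 2.41, 2.06 and 3.05 CPM after sham surgery and 10.6 and 3.78 CPM after MCAO/R, which did not overlap but did not pass the test (1.55, SE 0.50, adjusted p = 0.0552). After MCAO/R, Igf1 was higher in Lrg1-/- than in WT microglia (log2 fold change 2.003, SE 0.53, adjusted p = 0.0184). This call was lost without any 1 of MCAO/R + WT replicate 2 and MCAO/R + Lrg1-/- replicate 2 (adjusted p = 0.053 to 0.155). It moved to 2.96 without MCAO/R + WT replicate 1. The rise in Lrg1-/- mice moved to 4.07 without MCAO/R + Lrg1-/- replicate 2. The interaction over all microglia was 3.16 (SE 0.82, adjusted p = 0.0652). The 7 border-associated macrophage markers summed to 18.4 to 22.2 CPM in microglia of sham + WT, 32 to 41.8 CPM in sham + Lrg1-/-, 30.4 to 32.6 CPM in MCAO/R + WT and 37.5 to 55.8 CPM in MCAO/R + Lrg1-/-, with none of the 7 at 0 in any group. Their part in the result was not tested.

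Microglia were further divided by markers of activation into activated and other cells. The activated cells numbered 0 in sham + WT, 1 in sham + Lrg1-/-, 479 in MCAO/R + WT and 2648 in MCAO/R + Lrg1-/-. Igf1 in the activated cells was 35.5 CPM in MCAO/R + WT replicate 1, which held 474 of the 479 cells, and 50.4, 86.5 and 108 CPM in MCAO/R + Lrg1-/-. The WT level is thus from 1 library, assumed to vary like the other group, and the difference has no replicate check (1.16, SE 0.38, adjusted p = 0.128). Among the other microglia, Igf1 was 2.41, 2.06 and 3.05 CPM in sham + WT, 0.835, 1.67 and 1.57 CPM in sham + Lrg1-/-, 6.04 and 3.47 CPM in MCAO/R + WT and 8.1, 21 and 14.9 CPM in MCAO/R + Lrg1-/-. Within these cells the rise in Lrg1-/- mice held (log2 fold change 3.62, SE 0.45, adjusted p = 0.00035), as did the genotype difference after MCAO/R (1.54, SE 0.40, adjusted p = 0.0184). The interaction there was 2.69 (SE 0.61, adjusted p = 0.0479). The other microglia were not free of activation markers. Of their clusters, 8.3 and 8.4 had 4 of 6 such markers, and 9.0 and 9.3 had 3 of 6. Cluster 9.0 held 13.7% of microglia in MCAO/R + Lrg1-/-. Microglia of different groups came mostly from different clusters. Cluster 2 held 69.8% of microglia in sham + WT and cluster 1 held 66.2% in MCAO/R + WT, while cluster 5 held 48.3% in sham + Lrg1-/- and 40.3% in MCAO/R + Lrg1-/-. Median depth per microglial cell also differed, at 9512 UMIs in sham + WT, 3287 in sham + Lrg1-/-, 10194 in MCAO/R + WT and 5549 in MCAO/R + Lrg1-/-.

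**Figure D3:**
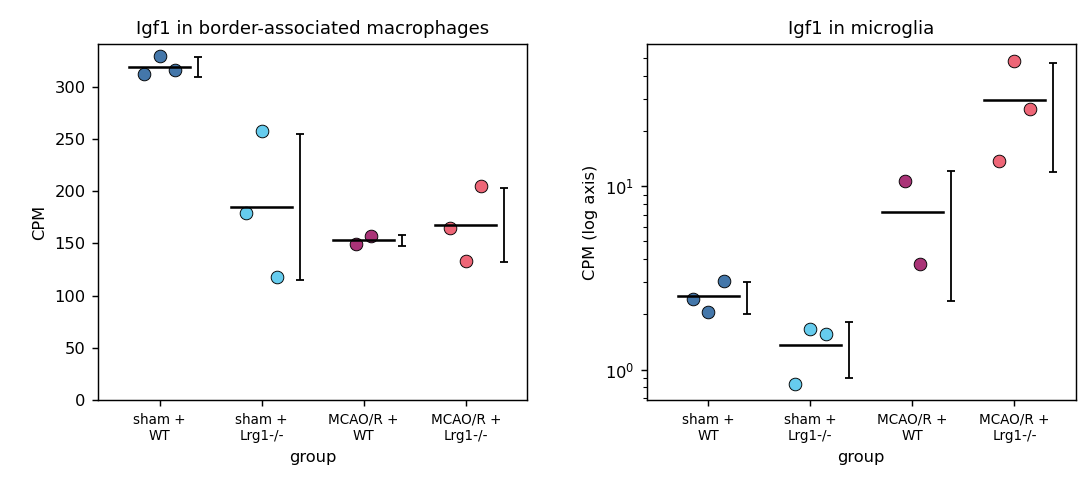
Igf1 level (CPM) per library in border-associated macrophages (axis from 0) and microglia (log axis) in the 4 groups, with 1 point per library, a line at the group mean and a bar of 1 SD. In macrophages the 3 sham + WT libraries lie above all others, and in microglia the 3 MCAO/R + Lrg1-/- libraries reach 13.7, 48.3 and 26.4 CPM.

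Low levels of Igf1 were also higher in Lrg1-/- than WT mice after MCAO/R in 3 classes that are not known as its source. In endothelial cells they were 0.584 and 0.205 CPM in MCAO/R + WT and 3.21, 2.65 and 2.22 CPM in MCAO/R + Lrg1-/- (log2 fold change 2.66, SE 0.45, adjusted p = 0.0011). They rose from 1.13, 0.543 and 0.777 CPM in sham + Lrg1-/- (log2 fold change 1.72, adjusted p = 0.0106). Oligodendrocytes had 6 and 5 UMIs in MCAO/R + WT and 1, 22 and 27 UMIs in MCAO/R + Lrg1-/- (log2 fold change 3.04, SE 0.69, adjusted p = 0.00541), with overlap between the groups in CPM. Vascular smooth muscle cells had 1 and 2 UMIs and 0, 36 and 12 UMIs in the same groups (log2 fold change 3.31, SE 0.89, adjusted p = 0.0224), again with overlap. The genotype call in endothelial cells moved to 3.72 without MCAO/R + WT replicate 1. Their rise was lost without sham + Lrg1-/- replicate 2 (adjusted p = 0.0608), without both Xist-positive libraries (adjusted p = 0.153) and with 15 components or unbalanced neighbours (adjusted p = 0.059 to 0.0739). The oligodendrocyte call was lost without MCAO/R + WT replicate 2 (adjusted p = 0.086). The fold moved to 3.73 without MCAO/R + WT replicate 1. The smooth muscle call was lost without any 1 of MCAO/R + WT replicates 1 and 2 and MCAO/R + Lrg1-/- replicate 2 (adjusted p = 0.125 to 0.143), without both Xist-positive libraries (adjusted p = 0.063) and with the DESeq2 test (adjusted p = 0.0558). It moved to 4.35 with doublets kept. In MCAO/R + Lrg1-/- the 8 microglial markers summed to 458 to 1047 CPM in endothelial cells, against 224 to 302 CPM in MCAO/R + WT. In oligodendrocytes they summed to 532 to 827 against 161 to 219 CPM, and in smooth muscle to 461 to 935 against 221 to 249.56 CPM. The 7 macrophage markers summed to 35.6 to 60.3 against 13.9 to 24 CPM in endothelial cells. These sums overlapped between the genotypes in oligodendrocytes (30.3 to 68.2 against 12 to 87.5 CPM) and smooth muscle (31.8 to 51.7 against 23.7 to 40.5 CPM). No marker of either list was at 0 in these groups. Their part in these low Igf1 levels was not tested.

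MCAO/R raised 4 binding proteins together in endothelial cells of both genotypes. Igfbp3 was 44.4, 67.2 and 57 CPM in sham + WT and 297 and 218 CPM in MCAO/R + WT (log2 fold change 2.23, SE 0.39, adjusted p = 0.00203). Lrg1-/- cells had 20.4, 30.2 and 22.7 CPM after sham surgery and 87.2, 311 and 204 CPM after MCAO/R (log2 fold change 3.04, SE 0.39, adjusted p = 0.00029). In each genotype the lowest MCAO/R library lay above the highest sham library.

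Igfbp4, which mostly inhibits IGF action until it is cleaved by pappalysin, rose most in these cells. Its levels were 7.17, 11.7 and 9.76 CPM in sham + WT and 162 and 65 CPM in MCAO/R + WT (log2 fold change 3.62, SE 0.44, adjusted p = 0.000178). In Lrg1-/- mice they were 7.37, 9.95 and 9.9 CPM after sham surgery and 136, 326 and 406 CPM after MCAO/R (log2 fold change 4.99, SE 0.47, adjusted p = 7.44e-05). The rise in Lrg1-/- mice moved to 4.22 with 15 components. All 5 MCAO/R libraries were above all 6 sham libraries. The level after MCAO/R was higher in Lrg1-/- than WT mice by 1.30 (SE 0.43, adjusted p = 0.0355), but these groups overlapped. This call was lost without any 1 of MCAO/R + WT replicate 2 and MCAO/R + Lrg1-/- replicates 2 and 5 (adjusted p = 0.0714 to 0.236), with unbalanced neighbours (adjusted p = 0.0851) and with 15 components (0.64, adjusted p = 0.258). Its value moved to 2.19 without MCAO/R + WT replicate 1. The rise in WT mice moved to 2.73 without MCAO/R + WT replicate 1. At 1000 UMIs per cell, the share of endothelial cells with an Igfbp4 UMI was 0.871, 0.912, 5.72 and 14.9% in sham + WT, sham + Lrg1-/-, MCAO/R + WT and MCAO/R + Lrg1-/-, and unthinned 5.72, 6.79, 18.4 and 38%. The thinned shares in oligodendrocytes, a class with little Igfbp4, were 0.278, 1.27, 0.498 and 1.35%. With this rise, endothelial cells held 52.2% of all Igfbp4 UMIs in MCAO/R + WT and 46% in MCAO/R + Lrg1-/-, whereas vascular smooth muscle cells led in sham + WT with 28%.

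Igfbp7 was 1540, 1395 and 1345 CPM in sham + WT and 3532 and 2964 CPM in MCAO/R + WT (log2 fold change 1.22, SE 0.20, adjusted p = 0.00118). Lrg1-/- endothelial cells had 1077, 1487 and 1525 CPM after sham surgery and 3961, 4471 and 3129 CPM after MCAO/R (log2 fold change 1.49, SE 0.18, adjusted p = 0.000206). No MCAO/R library overlapped a sham library. Igfbp6 was low but rose as well, from 0.299, 0.974 and 0.373 CPM to 5.51 and 5.45 CPM in WT mice (log2 fold change 3.35, SE 0.52, adjusted p = 0.000938). The rise was from 1.84, 0.905 and 5.05 CPM to 13.5, 15.7 and 16.3 CPM in Lrg1-/- mice (log2 fold change 2.70, SE 0.48, adjusted p = 0.00177). For Igfbp6 the genotypes also differed, with higher levels in Lrg1-/- mice after sham surgery (2.08, SE 0.57, adjusted p = 0.03, groups overlapping) and after MCAO/R (1.43, SE 0.46, adjusted p = 0.0306). The sham call was lost without any 1 of sham + WT replicates 1 and 3 and sham + Lrg1-/- replicates 1 and 5 (adjusted p = 0.0569 to 0.12). It moved to 2.76 without sham + WT replicate 2. The MCAO/R call was lost without any 1 of MCAO/R + WT replicates 1 and 2 and MCAO/R + Lrg1-/- replicate 2 (adjusted p = 0.0565 to 0.123), without both Xist-positive libraries (adjusted p = 0.0927) and with 15 components or unbalanced neighbours (adjusted p = 0.0568 to 0.0651). The rise moved to 4.02 without sham + WT replicate 2 in WT mice and moved to 3.48 without sham + Lrg1-/- replicate 5 in Lrg1-/- mice. The 8 calls of Igfbp3, Igfbp4, Igfbp6 and Igfbp7 after MCAO/R were kept under all 22 alternatives. The 7 neutrophil markers in endothelial cells summed to 7.99 to 12.7 CPM in sham + WT, 15.7 to 17.3 in MCAO/R + WT, 25.4 to 58 in sham + Lrg1-/- and 68.2 to 1016 in MCAO/R + Lrg1-/-, and their part in these rises was not tested. None of these 4 genes passed the interaction test (adjusted p = 0.459, 0.253, 0.675 and 0.64).

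The 250 bases before the transcription start of these 4 genes, and of Igf1r, are shown because these genes rose together in the same cells, whereas the receptor did not. They are windows before the RefSeq start in GRCm38.p6, read 5′ to 3′ on the strand of the gene. Capitals mark each match on either strand to GGGCGG (an SP1-type GC box), ACGTG (the core of a hypoxia response element) or TATAAA (the TATA box).
Igfbp3, chr11:7213924-7214173, minus strand: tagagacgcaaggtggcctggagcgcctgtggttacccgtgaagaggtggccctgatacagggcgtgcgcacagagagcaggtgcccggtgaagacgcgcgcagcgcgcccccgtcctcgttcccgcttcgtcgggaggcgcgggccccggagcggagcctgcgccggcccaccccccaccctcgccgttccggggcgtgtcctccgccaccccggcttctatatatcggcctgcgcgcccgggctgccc
Igfbp4, chr11:99040994-99041243, plus strand: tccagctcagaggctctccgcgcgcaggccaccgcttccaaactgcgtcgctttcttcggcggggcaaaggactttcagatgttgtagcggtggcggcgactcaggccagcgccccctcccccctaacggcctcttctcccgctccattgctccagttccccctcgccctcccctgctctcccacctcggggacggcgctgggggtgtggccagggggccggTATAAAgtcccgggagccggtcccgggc
Igfbp6, chr15:102143936-102144185, plus strand: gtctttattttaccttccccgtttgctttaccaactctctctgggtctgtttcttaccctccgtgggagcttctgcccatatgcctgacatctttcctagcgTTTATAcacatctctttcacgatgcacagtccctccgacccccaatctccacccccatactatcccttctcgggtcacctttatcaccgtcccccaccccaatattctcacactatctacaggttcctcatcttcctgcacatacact
Igfbp7, chr5:77408046-77408295, minus strand: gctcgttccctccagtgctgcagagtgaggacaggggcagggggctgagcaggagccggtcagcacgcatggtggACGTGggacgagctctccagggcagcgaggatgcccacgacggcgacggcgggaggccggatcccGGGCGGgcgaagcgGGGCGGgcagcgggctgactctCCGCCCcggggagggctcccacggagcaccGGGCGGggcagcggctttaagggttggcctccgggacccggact
Igf1r, chr7:67952007-67952256, plus strand: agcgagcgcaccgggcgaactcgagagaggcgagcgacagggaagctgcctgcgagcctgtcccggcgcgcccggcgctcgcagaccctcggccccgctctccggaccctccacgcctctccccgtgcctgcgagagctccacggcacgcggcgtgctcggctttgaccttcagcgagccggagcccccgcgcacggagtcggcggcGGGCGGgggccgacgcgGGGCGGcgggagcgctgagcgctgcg
Igfbp7 held 4 matches to GGGCGG and 1 to ACGTG, Igf1r held 2 to GGGCGG, and Igfbp4 and Igfbp6 held 1 each to TATAAA. Igfbp3 held 0 matches to any of the 3. Of all 32851 RefSeq windows of this length, 32.7% held GGGCGG, 16.6% ACGTG and 12.4% TATAAA. No motif matched in all 4 binding protein windows, and a match is a description of the letters only.

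**Figure D4:**
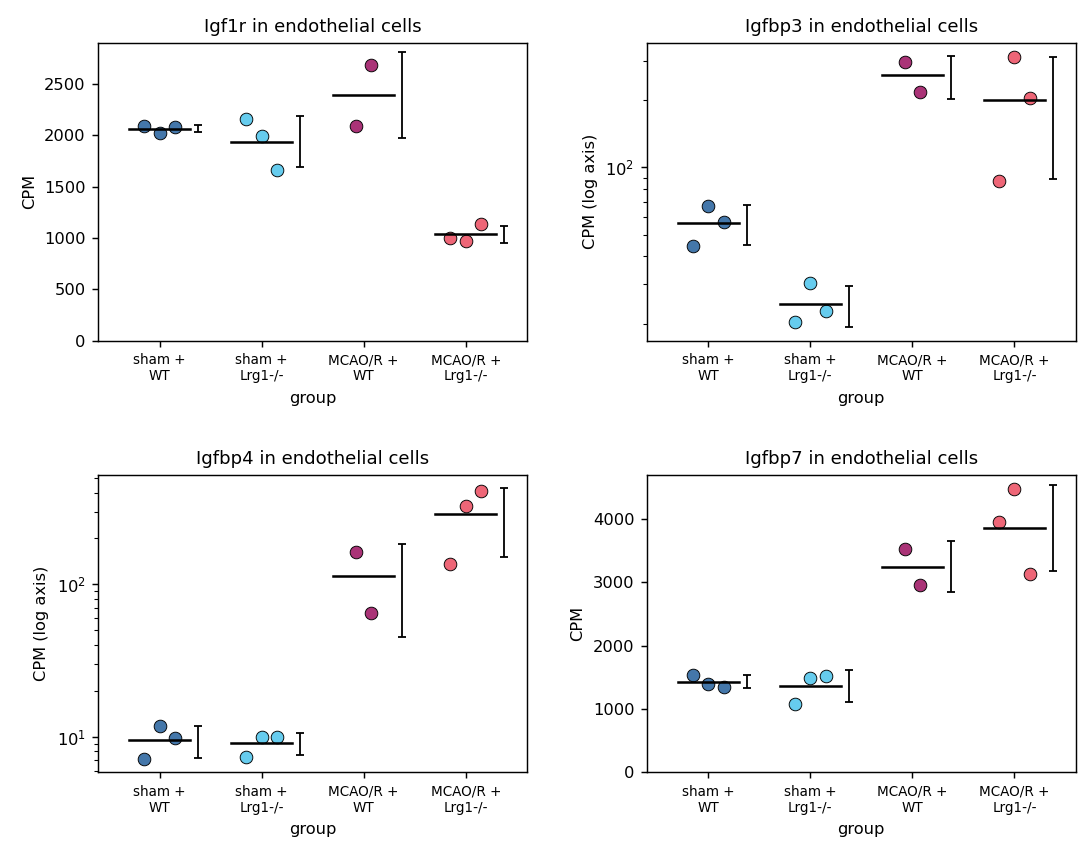
Levels (CPM) of Igf1r and Igfbp7 (axes from 0) and of Igfbp3 and Igfbp4 (log axes) in endothelial cells, with 1 point per library, a line at the group mean and a bar of 1 SD. The 3 binding proteins are higher in every MCAO/R library than in every sham library of the same genotype, and Igf1r is near 1000 CPM only in the 3 MCAO/R + Lrg1-/- libraries.

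The rises of Igfbp3, Igfbp4 and Igfbp7 were also tested within segments of the vessel tree, as far as cell numbers allowed. Clusters with capillary markers held 5859 cells in sham + WT and 2016 in sham + Lrg1-/-, but only 11 in MCAO/R + WT and 125 in MCAO/R + Lrg1-/-. Most MCAO/R endothelial cells, 4836 in WT and 4453 in Lrg1-/- mice, were in clusters that the markers of no single segment set apart, which held 82 sham + WT and 133 sham + Lrg1-/- cells. The largest, cluster 3 with 8337 cells, had 4 of 6 venous and 4 of 5 capillary markers. In arterial cells, Igfbp4 was 12.1, 30.2 and 24.1 CPM in sham + WT and 1946 and 695 CPM in MCAO/R + WT (5.91, SE 0.46, adjusted p = 2.45e-06). Lrg1-/- arterial cells had 14.5, 34.8 and 65.6 CPM after sham surgery and 3352 and 2193 CPM after MCAO/R (6.44, SE 0.51, adjusted p = 5.45e-06). Arterial Igfbp3 rose by 2.28 and 1.87 on the log2 scale in WT and Lrg1-/- mice (adjusted p = 3.91e-05 and 0.000449). In the capillary cells of Lrg1-/- mice, MCAO/R raised Igfbp3 (2.58, SE 0.38, adjusted p = 0.00427), Igfbp4 (1.83, SE 0.41, adjusted p = 0.0302) and Igfbp7 (1.32, SE 0.17, adjusted p = 0.00135). Igfbp6 did not pass for MCAO/R in any segment where it was tested, with -0.90 (SE 1.55, adjusted p = 0.838) in capillary cells of Lrg1-/- mice. In the clusters of no single segment it had 1.27 (SE 1.30, adjusted p = 0.707) in WT and 0.25 (SE 0.43, adjusted p = 0.799) in Lrg1-/- mice. Igfbp7 in arterial cells of WT mice (0.80, SE 0.25, adjusted p = 0.0616) and Igfbp4 in the WT clusters of no single segment (adjusted p = 0.0825) did not pass either. In those clusters Igfbp3 rose in WT (6.51, adjusted p = 0.017) and Lrg1-/- mice (4.62, adjusted p = 0.00145). So did Igfbp7 (1.35, adjusted p = 0.0306, and 1.67, adjusted p = 0.00176). Igfbp4 rose there in Lrg1-/- mice (4.21, adjusted p = 0.00301), and Igfbp7 rose in their arterial cells (0.90, adjusted p = 0.024). Igfbp3 was highest of all in the fenestrated capillaries of the choroid plexus, with 1672, 1316 and 1395 CPM in sham + WT and 4004 CPM in the only MCAO/R + WT library with at least 20 such cells.

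Igfbp3 also rose outside the endothelium, at lower levels. In pericytes it was 0, 2.69 and 2.22 CPM in sham + WT and 14.6 and 24.5 CPM in MCAO/R + WT (log2 fold change 3.59, SE 0.64, adjusted p = 0.00442). The levels in Lrg1-/- mice were 7.22, 0 and 0 and 13.4, 45 and 45.2 CPM (3.73, SE 0.93, adjusted p = 0.0488). The WT call was lost without MCAO/R + WT replicate 2 (adjusted p = 0.0592). The fold moved to 2.96 without sham + WT replicate 1, 2.83 with 15 components and 4.31 with doublets kept. The Lrg1-/- call was lost without any 1 of sham + WT replicates 2 and 3, sham + Lrg1-/- replicates 1, 2 and 5 and MCAO/R + Lrg1-/- replicates 2 and 5 (adjusted p = 0.0623 to 0.213), without both Xist-positive libraries (adjusted p = 0.077), with doublets kept or choroid plexus UMIs taken off (adjusted p = 0.0513 to 0.0624), with 15 components (7.14, adjusted p = 0.252), with at least 50 cells (2.72, adjusted p = 0.358) and with unbalanced neighbours (1.97, adjusted p = 0.48). In border-associated macrophages it rose from 0.963, 1.58 and 1.9 to 7.13 and 9.66 CPM in WT mice (2.39, adjusted p = 0.0139). In Lrg1-/- macrophages it rose from 0.819, 1.23 and 0 to 7.06, 16.3 and 6.61 CPM (3.64, adjusted p = 0.00739). The WT call was lost without any 1 of sham + WT replicates 1 and 2 and MCAO/R + WT replicate 2 (adjusted p = 0.0553 to 0.0709) and with 15 components or unbalanced neighbours (adjusted p = 0.0714 to 0.115). The Lrg1-/- call was lost without any 1 of sham + Lrg1-/- replicate 1 and MCAO/R + Lrg1-/- replicate 2 (adjusted p = 0.0545 to 0.0814), without both Xist-positive libraries (adjusted p = 0.232) and with 15 components or unbalanced neighbours (adjusted p = 0.0986 to 0.166). In microglia the rise was from 0.686, 1.2 and 1.68 to 7.31 and 4.38 CPM in WT mice (2.32, adjusted p = 0.0245). In Lrg1-/- microglia it was from 1.19, 1.84 and 3.4 to 6.22, 12.7 and 2 CPM, with overlap (1.99, adjusted p = 0.039). For microglia the WT call was lost without any 1 of sham + WT replicates 1, 2 and 3 and MCAO/R + WT replicate 1 (adjusted p = 0.0504 to 0.195). The Lrg1-/- call was lost without any 1 of sham + WT replicates 2 and 3, sham + Lrg1-/- replicates 1 and 2 and MCAO/R + Lrg1-/- replicate 2 (adjusted p = 0.0531 to 0.228), without both Xist-positive libraries (adjusted p = 0.862) and with doublets kept (adjusted p = 0.0907). Oligodendrocytes went from 1.13, 0.848 and 1.3 to 5.59 and 3.65 CPM in WT mice (1.97, adjusted p = 0.037), a call that was lost without any 1 of sham + WT replicates 1, 2 and 3 and MCAO/R + WT replicate 1 (adjusted p = 0.0739 to 0.141), with 15 components (0.98, adjusted p = 0.257) and with unbalanced neighbours (0.96, adjusted p = 0.291). In all 4 classes these levels stayed below those of endothelial cells of the same libraries. The 7 endothelial markers summed to 550.0 to 701 CPM in pericytes of sham + WT, 835 to 885 in MCAO/R + WT, 1715 to 2561 in sham + Lrg1-/- and 2370 to 4406 in MCAO/R + Lrg1-/-. In microglia these sums were 189.9 to 255, 269.7 to 328, 357 to 861 and 116 to 557 CPM. No marker was at 0, and their part was not tested.

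Igf1r in endothelial cells fell after MCAO/R in Lrg1-/- mice, and this change differed from that in WT mice by the interaction test. Its levels were 2087, 2027 and 2084 CPM in sham + WT, 2092 and 2685 CPM in MCAO/R + WT, 2158, 1993 and 1666 CPM in sham + Lrg1-/- and 1003, 973 and 1131 CPM in MCAO/R + Lrg1-/-. The 3 MCAO/R + Lrg1-/- libraries lay below all 8 others, and the 2 sham groups overlapped. The change in Lrg1-/- mice was -0.92 (SE 0.12, adjusted p = 0.000351), and that in WT mice was 0.24 (SE 0.13, adjusted p = 0.256). The interaction was -1.16 (SE 0.18, adjusted p = 0.00795). After MCAO/R, Lrg1-/- cells differed from WT cells by -1.24 (SE 0.13, adjusted p = 0.000103). After sham surgery the difference was -0.08 (SE 0.12, adjusted p = 0.707). The interaction passed in 21 of 22 alternatives and the other 2 calls in 22 of 22. Median depth was close between the groups, at 7230, 8173, 7225 and 7270 UMIs per endothelial cell in sham + WT, sham + Lrg1-/-, MCAO/R + WT and MCAO/R + Lrg1-/-. At 1000 UMIs per cell, 78.4, 76.8, 78.3 and 49.7% of endothelial cells had an Igf1r UMI in the same order. Unthinned, the shares were 95.9, 97.5, 94.1 and 81.7%. T cells had thinned shares of 6.64, 13.8, 15 and 6.2%.

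The shift in endothelial clusters with MCAO/R accompanied this difference. Within the clusters that no single segment's markers set apart, Igf1r was 1878 and 1480 CPM in sham + WT, 750.4, 825 and 709 CPM in sham + Lrg1-/-, 2141 and 2760 CPM in MCAO/R + WT and 954, 1004 and 1188 CPM in MCAO/R + Lrg1-/-. There it was lower in Lrg1-/- than WT mice after MCAO/R (-1.26, SE 0.19, adjusted p = 0.00278) and also after sham surgery (-0.95, SE 0.20, adjusted p = 0.0338). The interaction did not pass there (-0.31, SE 0.28, adjusted p = 0.777). In arterial cells it was 1350, 1181 and 1304 CPM in sham + WT, 1148, 1192 and 705 CPM in sham + Lrg1-/-, 821 and 1130 CPM in MCAO/R + WT and 388 and 439 CPM in MCAO/R + Lrg1-/-. MCAO/R lowered it in Lrg1-/- arterial cells (-1.24, SE 0.21, adjusted p = 0.00146) and the change in WT arterial cells, whose groups did not overlap either, did not pass (-0.37, SE 0.20, adjusted p = 0.327). The arterial interaction did not pass (-0.88, SE 0.29, adjusted p = 0.164). The few cells that kept capillary markers after MCAO/R in Lrg1-/- mice had 2066 and 2552 CPM, against 2407, 2164 and 1994 CPM in sham + Lrg1-/- (-0.09, SE 0.13, adjusted p = 0.803). Sums of other cells' markers in endothelial cells were higher in MCAO/R + Lrg1-/- than in MCAO/R + WT libraries for neutrophils (given above) and smooth muscle (129 to 655 against 64.6 to 71.2 CPM). Their part in the result was not tested.

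Igf1r was also lower in Lrg1-/- than WT mice after MCAO/R in 4 other classes and higher in 1. In microglia the levels were 330.4 and 645 CPM in MCAO/R + WT and 106, 169.7 and 180.1 CPM in MCAO/R + Lrg1-/- (-1.73, SE 0.29, adjusted p = 0.00232). They had risen in WT mice from 182, 235 and 195 CPM (1.26, SE 0.29, adjusted p = 0.0111). Lrg1-/- microglia had 197, 195 and 201 CPM after sham surgery and did not change by the test (-0.22, SE 0.26, adjusted p = 0.582). The interaction in microglia did not pass (-1.48, SE 0.39, adjusted p = 0.0701). The rise in WT mice was lost without any 1 of sham + WT replicate 3 and MCAO/R + WT replicate 2 (adjusted p = 0.0551 to 0.143). Vascular smooth muscle cells followed the same pattern, with 330.3, 389.7 and 388 CPM in sham + WT, 532 and 565 CPM in MCAO/R + WT, 339, 304 and 345 CPM in sham + Lrg1-/- and 381, 351 and 357 CPM in MCAO/R + Lrg1-/-. MCAO/R raised it in WT mice (0.58, SE 0.11, adjusted p = 0.00329), and the genotypes differed after MCAO/R (-0.59, SE 0.11, adjusted p = 0.00363). For smooth muscle the interaction did not pass (-0.44, SE 0.15, adjusted p = 0.223).

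In choroid plexus epithelial cells, Igf1r was 114, 208 and 189.7 CPM in sham + WT, 63.4, 84.6 and 94.5 CPM in sham + Lrg1-/-, 305 and 456 CPM in MCAO/R + WT and 57, 93.8 and 92.1 CPM in MCAO/R + Lrg1-/-. It was lower in Lrg1-/- mice after both sham surgery (-0.93, SE 0.26, adjusted p = 0.0289) and MCAO/R (-2.005, SE 0.29, adjusted p = 0.000958). The sham call was lost without any 1 of sham + WT replicates 2 and 3 and sham + Lrg1-/- replicates 1 and 2 (adjusted p = 0.0688 to 0.152) and with under 10% mitochondrial UMIs (adjusted p = 0.496). After MCAO/R most of these cells were in clusters 6.6 (34.1%) and 15 (28.8%) in WT mice but in 6.1 (34.8%) and 6.3 (32.6%) in Lrg1-/- mice. Endothelial markers there summed to 574 to 685 CPM in MCAO/R + WT and 206 to 561 CPM in MCAO/R + Lrg1-/-, and their part was not tested. Border-associated macrophages had 257 and 397 CPM in MCAO/R + WT and 106, 189 and 180.0 CPM in MCAO/R + Lrg1-/- (-1.03, SE 0.26, adjusted p = 0.0117). The macrophage call was lost without MCAO/R + WT replicate 2 (adjusted p = 0.124) and without both Xist-positive libraries (adjusted p = 0.148). Oligodendrocytes, the myelin-forming cells, went the other way, with 177 and 176 CPM in MCAO/R + WT and 248, 219 and 186 CPM in MCAO/R + Lrg1-/- (0.38, SE 0.12, adjusted p = 0.0289). The call in oligodendrocytes was lost without any 1 of MCAO/R + WT replicates 1 and 2 and MCAO/R + Lrg1-/- replicates 1 and 2 (adjusted p = 0.0514 to 0.131), without both Xist-positive libraries (adjusted p = 0.319) and with under 10% mitochondrial UMIs, doublets kept, unbalanced neighbours or no filter (adjusted p = 0.0698 to 0.427). Cluster 10 held 91.9% of the oligodendrocytes of MCAO/R + WT and 32.4% of those of MCAO/R + Lrg1-/-. Igf2r passed only in microglia, where MCAO/R raised it from 1.8, 1.35 and 0.615 to 17.6 and 2.81 CPM in WT mice (3.05, SE 0.67, adjusted p = 0.00871). In Lrg1-/- mice it rose from 4.89, 6.01 and 4.71 to 19.1, 50.5 and 19.9 CPM (2.70, SE 0.65, adjusted p = 0.00811). The Igf2r call in WT mice was lost without MCAO/R + WT replicate 1 (adjusted p = 0.36). It moved to 3.84 without MCAO/R + WT replicate 2. The one in Lrg1-/- mice was lost without both Xist-positive libraries (adjusted p = 0.0665). The change moved to 1.996 without MCAO/R + Lrg1-/- replicate 2.

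Igfbp4 changed in opposite directions in smooth muscle and macrophages of WT mice. In vascular smooth muscle cells it was 265, 265 and 188 CPM in sham + WT, 387 and 480.5 CPM in MCAO/R + WT, 256, 249 and 213 CPM in sham + Lrg1-/- and 238, 149.7 and 155 CPM in MCAO/R + Lrg1-/-. MCAO/R raised it in WT mice (0.88, SE 0.18, adjusted p = 0.00553). This rise was lost without MCAO/R + WT replicate 2 (adjusted p = 0.0712). The change in Lrg1-/- mice was -0.45 (SE 0.17, adjusted p = 0.0996). The 3 MCAO/R + Lrg1-/- libraries lay below both MCAO/R + WT libraries (-1.30, SE 0.19, adjusted p = 0.000684), and the interaction passed (-1.33, SE 0.25, adjusted p = 0.0289). The interaction was kept in 14 of 22 alternatives. It was lost without any 1 of sham + WT replicates 1, 2 and 3, sham + Lrg1-/- replicates 1 and 2, MCAO/R + WT replicate 2 and MCAO/R + Lrg1-/- replicate 2 (adjusted p = 0.0596 to 0.161). In border-associated macrophages Igfbp4 was 311, 311 and 305 CPM in sham + WT and 44.8 and 13.6 CPM in MCAO/R + WT, a fall kept in 22 of 22 alternatives (-3.34, SE 0.45, adjusted p = 0.000299). Lrg1-/- macrophages had 241, 302 and 315 CPM after sham surgery and 180.1, 234 and 72.7 CPM after MCAO/R (-0.76, SE 0.36, adjusted p = 0.197). They were above WT macrophages after MCAO/R (2.42, SE 0.44, adjusted p = 0.00194). The fall in WT macrophages moved to -4.55 without MCAO/R + WT replicate 1 and -2.74 without MCAO/R + WT replicate 2. The genotype call was lost without both Xist-positive libraries (adjusted p = 0.195). The fold moved to 3.63 without MCAO/R + WT replicate 1 and 1.82 without MCAO/R + WT replicate 2. For macrophages the interaction did not pass (2.59, SE 0.56, adjusted p = 0.106).

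In microglia, Igfbp4 fell in WT mice from 18.9, 16 and 16 to 8.18 and 4.62 CPM (-1.39, SE 0.41, adjusted p = 0.0401). It was higher in Lrg1-/- mice after MCAO/R, at 23.1, 21 and 7.17 CPM with overlap (1.32, SE 0.41, adjusted p = 0.0374). The fall was lost without any 1 of sham + WT replicates 1, 2 and 3, sham + Lrg1-/- replicates 1 and 2 and MCAO/R + WT replicates 1 and 2 (adjusted p = 0.056 to 0.223) and with doublets kept (adjusted p = 0.108). The genotype call was lost without any 1 of sham + WT replicates 1, 2 and 3, sham + Lrg1-/- replicates 1 and 2, MCAO/R + WT replicate 2 and MCAO/R + Lrg1-/- replicates 1 and 2 (adjusted p = 0.0509 to 0.263), without both Xist-positive libraries (adjusted p = 0.912) and with doublets kept (adjusted p = 0.0747). At low levels, Igfbp4 was also higher in Lrg1-/- than WT mice after MCAO/R in 4 further classes. It was 8.58 and 7.05 against 53.5, 23.8 and 18.7 CPM in neuronal lineage cells (2.05, SE 0.42, adjusted p = 0.0138). Oligodendrocytes had 5.25 and 3.31 against 11.5, 23.4 and 7.47 CPM (1.82, SE 0.47, adjusted p = 0.0113). Ciliated ependymal cells had 12 and 5.22 against 84.8, 22.6 and 26.7 CPM (2.45, SE 0.67, adjusted p = 0.0495). Choroid plexus epithelial cells had 10.6 and 10.1 against 21.2, 35.6 and 16.1 CPM (1.45, SE 0.49, adjusted p = 0.0386). After sham surgery, oligodendrocytes had 3.15, 2.92 and 1.95 CPM in WT and 8.59, 3.93 and 16.2 CPM in Lrg1-/- mice (1.68, SE 0.50, adjusted p = 0.0366). None of these 5 pairs of groups overlapped. After MCAO/R the neuronal call was lost without any 1 of MCAO/R + WT replicates 1 and 2 (adjusted p = 0.0769 to 0.166), without both Xist-positive libraries (adjusted p = 0.111) and with 15 components or unbalanced neighbours (adjusted p = 0.0522 to 0.0989). The oligodendrocyte call was lost without any 1 of MCAO/R + WT replicate 2 and MCAO/R + Lrg1-/- replicate 2 (adjusted p = 0.0603 to 0.0916) and without both Xist-positive libraries (adjusted p = 0.185). The ciliated ependymal call was lost without any 1 of sham + WT replicates 1, 2 and 3, sham + Lrg1-/- replicates 1 and 2, MCAO/R + WT replicates 1 and 2 and MCAO/R + Lrg1-/- replicates 1 and 5 (adjusted p = 0.0535 to 0.349), without both Xist-positive libraries (adjusted p = 0.0842), with DESeq2 size factors, under 10% mitochondrial UMIs or choroid plexus UMIs taken off (adjusted p = 0.0503 to 0.0662), with 15 components (1.33, adjusted p = 0.0685) and with unbalanced neighbours (1.55, adjusted p = 0.117). The choroid plexus call was lost without any 1 of sham + Lrg1-/- replicates 1 and 2, MCAO/R + WT replicates 1 and 2 and MCAO/R + Lrg1-/- replicate 2 (adjusted p = 0.0538 to 0.215), without both Xist-positive libraries (adjusted p = 0.246) and with at least 50 cells, under 10% mitochondrial UMIs or unbalanced neighbours (adjusted p = 0.051 to 0.393). The sham call in oligodendrocytes was lost without any 1 of sham + WT replicates 1, 2 and 3 and sham + Lrg1-/- replicates 1 and 5 (adjusted p = 0.0624 to 0.126) and with 15 components, choroid plexus UMIs taken off or unbalanced neighbours (adjusted p = 0.0544 to 0.164). Unnamed cells held 38.9% of Igfbp4 UMIs in sham + Lrg1-/- and 30.3% in MCAO/R + Lrg1-/-, and their part in these low levels was not tested.

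Igfbp5 fell after MCAO/R in vascular smooth muscle cells of both genotypes. It was 23.9, 21.3 and 47.9 CPM in sham + WT and 2.29 and 10.7 CPM in MCAO/R + WT (log2 fold change -2.24, SE 0.53, adjusted p = 0.013). In Lrg1-/- mice it was 63.5, 46.6 and 34.1 CPM after sham surgery and 23.5, 6.87 and 7.74 CPM after MCAO/R (log2 fold change -2.42, SE 0.47, adjusted p = 0.00385). Neither genotype had an MCAO/R library above its lowest sham library. The call in WT mice was lost without any 1 of sham + WT replicate 3 and MCAO/R + WT replicate 1 (adjusted p = 0.0554 to 0.137). It moved to -3.75 without MCAO/R + WT replicate 2. In fibroblasts, the class with the highest level, Igfbp5 was 379.8 and 334 CPM in MCAO/R + WT and 999.5 and 1013 CPM in the MCAO/R + Lrg1-/- libraries with at least 20 fibroblasts (log2 fold change 1.59, SE 0.25, adjusted p = 0.0403). That call was lost without any 1 of sham + WT replicates 1 and 2, MCAO/R + WT replicates 1 and 2 and MCAO/R + Lrg1-/- replicates 2 and 5 (adjusted p = 0.0782 to 0.535), without both Xist-positive libraries (adjusted p = 0.0818) and with 15 components (adjusted p = 0.202). In endothelial cells, Igfbp5 was higher in Lrg1-/- than WT mice after sham surgery, at 3.48, 2.53 and 2.33 against 1.49, 1.15 and 1.42 CPM (1.06, SE 0.30, adjusted p = 0.0324). It was also higher after MCAO/R, at 3.59, 2.3 and 2.36 against 1.02 and 1.64 CPM (1.004, SE 0.32, adjusted p = 0.0307). Sham microglia had 6.91, 4.68 and 4.18 CPM in Lrg1-/- and 1.4, 1.08 and 1.2 CPM in WT mice (1.92, SE 0.45, adjusted p = 0.00888). The 7 fibroblast markers in microglia summed to 10.97 to 13.2 CPM in sham + Lrg1-/- and 2.29 to 3.96 CPM in sham + WT. Their part in the microglial call, and the part of fibroblast RNA in the endothelial calls, was not tested. The endothelial sham call was lost without any 1 of sham + WT replicates 1, 2 and 3 and sham + Lrg1-/- replicates 1, 2 and 5 (adjusted p = 0.0558 to 0.132) and with 15 components or choroid plexus UMIs taken off (adjusted p = 0.0595 to 0.106). The endothelial MCAO/R call was lost without any 1 of MCAO/R + WT replicate 1 and MCAO/R + Lrg1-/- replicate 1 (adjusted p = 0.0833 to 0.202), without both Xist-positive libraries (adjusted p = 0.264) and with 15 components, choroid plexus UMIs taken off or unbalanced neighbours (adjusted p = 0.0565 to 0.166). The microglial sham call was lost without sham + Lrg1-/- replicate 1 (adjusted p = 0.0559).

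Igfbp6 also rose after MCAO/R in microglia and border-associated macrophages of both genotypes. In microglia it was 0.483, 0.441 and 0.401 CPM in sham + WT and 10.3 and 13.4 CPM in MCAO/R + WT (log2 fold change 4.74, SE 0.24, adjusted p = 5.82e-07). Lrg1-/- microglia had 1.31, 1 and 1.05 CPM after sham surgery and 11, 9.34 and 12.1 CPM after MCAO/R (log2 fold change 3.38, SE 0.26, adjusted p = 3.9e-05). No MCAO/R library overlapped a sham library, and the sham levels differed by genotype (1.16, SE 0.30, adjusted p = 0.0195). This sham call was lost without any 1 of sham + WT replicate 3 and sham + Lrg1-/- replicate 1 (adjusted p = 0.0551 to 0.188) and with 15 components or unbalanced neighbours (adjusted p = 0.0514 to 0.0607). The 7 neutrophil markers in microglia summed to means of 216 CPM in sham + WT, 185 in MCAO/R + WT, 604 in sham + Lrg1-/- and 388 in MCAO/R + Lrg1-/-. Their part was not tested. Border-associated macrophages had 0 Igfbp6 UMIs in all 3 sham + WT libraries and 37 and 14 UMIs in MCAO/R + WT (adjusted p = 0.00116). They had 0, 0 and 2 UMIs in sham + Lrg1-/- and 13, 44 and 10 UMIs in MCAO/R + Lrg1-/- (adjusted p = 0.00816). The Lrg1-/- call was lost without sham + Lrg1-/- replicate 1 (adjusted p = 0.0624), without both Xist-positive libraries (adjusted p = 0.134) and with 15 components (adjusted p = 0.133). Monocytes had 0 UMIs in the sham + Lrg1-/- library with at least 20 cells and 11, 432 and 50 UMIs in MCAO/R + Lrg1-/- (adjusted p = 0.0468, with 1 sham library). The monocyte call was lost without any 1 of sham + WT replicates 1 and 2 and MCAO/R + Lrg1-/- replicates 2 and 5 (adjusted p = 0.0517 to 0.21), without both Xist-positive libraries (adjusted p = 0.289) and with the DESeq2 test, under 10% mitochondrial UMIs, choroid plexus UMIs taken off or unbalanced neighbours (adjusted p = 0.0506 to 0.0863). Igfbp6 also rose in vascular smooth muscle cells of Lrg1-/- mice, from 0.254, 0.42 and 0.874 to 1.38, 3.43 and 8.41 CPM (3.50, SE 0.79, adjusted p = 0.00949). In choroid plexus epithelial cells it rose from 1.5, 2.1 and 1.23 to 5.1, 4.49 and 8.56 CPM (1.75, SE 0.41, adjusted p = 0.0305). The smooth muscle call was lost without sham + Lrg1-/- replicate 1 (adjusted p = 0.0657). The change moved to 4.26 without both Xist-positive libraries. The choroid plexus call was lost without any 1 of sham + Lrg1-/- replicates 1, 2 and 5 and MCAO/R + Lrg1-/- replicate 5 (adjusted p = 0.0667 to 0.185) and with 15 components (adjusted p = 0.0604). In Lrg1-/- mice the neutrophil markers went from 70.2 to 90.8 CPM after sham surgery to 47.7 to 1044 CPM after MCAO/R in macrophages, from 23.1 to 41.9 to 19.3 to 447 in smooth muscle and from 34.1 to 216 to 56.2 to 496 in the choroid plexus, and their part was not tested. In neutrophils, which are recruited from blood, Igfbp6 was 192 and 208 CPM in MCAO/R + WT and 177 and 244 CPM in the MCAO/R + Lrg1-/- libraries with at least 20 cells. The only sham library with 20 neutrophils had 57.1 CPM, from 6 UMIs.

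Igfbp7 rose in vascular smooth muscle cells of Lrg1-/- mice, from 2633, 2931 and 3316 CPM to 4712, 5038 and 4068 CPM (log2 fold change 0.65, SE 0.12, adjusted p = 0.00244). WT cells had 3305, 3346 and 3382 CPM and 4353 and 3645 CPM (0.27, SE 0.13, adjusted p = 0.2). In border-associated macrophages of Lrg1-/- mice it rose from 55.7, 179.9 and 124 CPM to 559.7, 249 and 209.8 CPM (1.52, SE 0.38, adjusted p = 0.0207). It was above the 127 and 98.9 CPM of MCAO/R + WT (1.54, SE 0.42, adjusted p = 0.017). The rise was lost without any 1 of sham + Lrg1-/- replicate 1 and MCAO/R + Lrg1-/- replicate 1 (adjusted p = 0.073 to 0.092), without both Xist-positive libraries (adjusted p = 0.355) and with 15 components or unbalanced neighbours (adjusted p = 0.0579 to 0.0647). The genotype call was lost without any 1 of MCAO/R + WT replicate 2 and MCAO/R + Lrg1-/- replicate 1 (adjusted p = 0.061 to 0.127), without both Xist-positive libraries (adjusted p = 0.303), with doublets kept (adjusted p = 0.0555), with 15 components (0.55, adjusted p = 0.244) and with unbalanced neighbours (0.77, adjusted p = 0.209). After sham surgery Igfbp7 was 54.8, 92.5 and 185 CPM in Lrg1-/- microglia against 27.6, 31.3 and 30.4 CPM in WT microglia (1.69, SE 0.53, adjusted p = 0.0336). This microglial call was lost without any 1 of sham + WT replicates 1, 2 and 3 and sham + Lrg1-/- replicates 2 and 5 (adjusted p = 0.0565 to 0.159), with choroid plexus UMIs taken off (adjusted p = 0.0516), with 15 components (0.99, adjusted p = 0.0804) and with unbalanced neighbours (1.03, adjusted p = 0.0848). B cells had 142 CPM in the only sham + Lrg1-/- library with at least 20 cells and 32.3, 20.8 and 40.7 CPM in sham + WT. The log2 fold change was 2.39, with no replicate check in the sham + Lrg1-/- arm. The B cell call was lost with the DESeq2 test or unbalanced neighbours, with 15 components (-0.49) and with doublets kept (0.24). Ciliated ependymal cells had 754, 251 and 246 CPM in MCAO/R + Lrg1-/- and 123 and 101 CPM in MCAO/R + WT (2.11, SE 0.56, adjusted p = 0.0462). The ciliated call was lost without any 1 of sham + WT replicates 2 and 3, sham + Lrg1-/- replicate 2, MCAO/R + WT replicates 1 and 2 and MCAO/R + Lrg1-/- replicate 1 (adjusted p = 0.0589 to 0.328), without both Xist-positive libraries (adjusted p = 0.123), with choroid plexus UMIs taken off (adjusted p = 0.0593), with 15 components (0.57, adjusted p = 0.23) and with unbalanced neighbours (0.92, adjusted p = 0.323). Sums of endothelial markers in microglia were 357 to 861 CPM in sham + Lrg1-/- against 189.9 to 255 CPM in sham + WT. In border-associated macrophages they were 209.8 to 1406 CPM in MCAO/R + Lrg1-/- against 463 to 518 CPM in MCAO/R + WT. No marker was at 0, and their part in these results was not tested.

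Igf2 and Igfbp2 gave 16 of the 24 genotype calls after sham surgery and 10 of the 33 after MCAO/R. After sham surgery, Igf2 was higher in Lrg1-/- than WT mice in 7 classes and lower in 1 of 12 tested, and Igfbp2 was higher in 8 of 14. After MCAO/R, Igf2 was higher in 5 of 13 and Igfbp2 in 5 of 13. In microglia, Igfbp2 was 3.53, 4.92 and 4.54 CPM in sham + WT, 123, 71.3 and 77.4 CPM in sham + Lrg1-/-, 3.64 and 3.56 CPM in MCAO/R + WT and 71.7, 19.9 and 24.7 CPM in MCAO/R + Lrg1-/-. These levels differed without overlap between genotypes after sham surgery (4.19, SE 0.41, adjusted p = 5.4e-05) and after MCAO/R (3.29, SE 0.47, adjusted p = 0.000917). Igf2 in microglia was 1.55, 2.08 and 1.07 CPM in sham + WT, 34.6, 16.9 and 24.3 CPM in sham + Lrg1-/-, 0.814 and 1.32 CPM in MCAO/R + WT and 27.1, 4.12 and 3.1 CPM in MCAO/R + Lrg1-/-. The genotype difference was 3.81 (SE 0.69, adjusted p = 0.00237) after sham surgery and 3.23 (SE 0.80, adjusted p = 0.0142) after MCAO/R. The MCAO/R call of Igfbp2 moved to 2.61 without MCAO/R + Lrg1-/- replicate 1 and 2.70 without both Xist-positive libraries. The MCAO/R call of Igf2 was lost without any 1 of MCAO/R + WT replicates 1 and 2 (adjusted p = 0.0768 to 0.0826) and without both Xist-positive libraries (adjusted p = 0.071). The fold moved to 1.76 without MCAO/R + Lrg1-/- replicate 1.

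The other calls of this kind covered most classes. For Igfbp2 after sham surgery they were endothelial cells (3.70), oligodendrocytes (3.94), neuronal lineage cells (4.51), pericytes (3.99), border-associated macrophages (3.45), B cells (4.94) and vascular smooth muscle cells (1.14). After MCAO/R they were endothelial cells (3.96), oligodendrocytes (4.001), neuronal lineage cells (4.12) and border-associated macrophages (2.11). For Igf2 after sham surgery they were astrocytes (5.02), neuronal lineage cells (3.86), endothelial cells (3.40), ciliated ependymal cells (3.34), oligodendrocytes (3.11) and vascular smooth muscle cells (2.57). The MCAO/R calls of Igf2 were neuronal lineage cells (4.15), oligodendrocytes (3.53), ciliated ependymal cells (3.25) and endothelial cells (2.60). The exception was pericytes, a class with Igf2 of its own, where sham Lrg1-/- mice had 36.1, 37.4 and 19.3 CPM and sham + WT mice 67, 76.7 and 84.3 CPM (-1.13, SE 0.35, adjusted p = 0.0493). It was kept in 8 of 22 alternatives and was lost without any 1 of sham + WT replicates 1, 2 and 3, sham + Lrg1-/- replicates 1, 2 and 5 and MCAO/R + WT replicates 1 and 2 (adjusted p = 0.0526 to 0.163) and with the DESeq2 test, DESeq2 size factors, at least 50 cells, doublets kept or unbalanced neighbours (adjusted p = 0.0504 to 0.165). It moved to -1.71 with 15 components. In these pericytes the 6 smooth muscle markers summed to 1961 to 2767 CPM in sham + Lrg1-/- and 533 to 611 CPM in sham + WT, and the 7 endothelial markers to 1715 to 2561 and 550.0 to 701 CPM. The 7 pericyte markers summed to 11585 to 14534 and 20474 to 23011 CPM, and the part of these differences in the Igf2 change was not tested. Some of the calls listed did not hold when single libraries were left out. That of Igfbp2 in vascular smooth muscle cells after sham surgery was lost without any 1 of sham + WT replicates 1 and 3 and sham + Lrg1-/- replicates 1 and 2 (adjusted p = 0.0777 to 0.137). That of Igfbp2 in border-associated macrophages after MCAO/R was lost without MCAO/R + WT replicate 1 (adjusted p = 0.0532) and moved to 2.97 without MCAO/R + WT replicate 2. The same held for Igf2 after sham surgery in neuronal lineage cells (lost without any 1 of sham + WT replicates 1, 2 and 3, sham + Lrg1-/- replicates 1, 2 and 5 and MCAO/R + WT replicate 2 (adjusted p = 0.0508 to 0.151), with at least 50 cells (adjusted p = 0.128) and with 15 components (2.56, adjusted p = 0.307) and moved to 4.49 with doublets kept), ciliated ependymal cells (lost without any 1 of sham + WT replicates 1 and 3 and sham + Lrg1-/- replicate 5 (adjusted p = 0.0698 to 0.111) and moved to 4.05 without sham + WT replicate 2 and 3.99 with under 10% mitochondrial UMIs) and oligodendrocytes (lost without sham + Lrg1-/- replicate 1 (adjusted p = 0.0686)). It held too after MCAO/R in neuronal lineage cells (lost without any 1 of MCAO/R + WT replicates 1 and 2 (adjusted p = 0.0876 to 0.259) and without both Xist-positive libraries (adjusted p = 0.131) and moved to 3.04 without MCAO/R + Lrg1-/- replicate 1 and 5.19 with 15 components) and ciliated ependymal cells (lost without any 1 of MCAO/R + WT replicates 1 and 2 and MCAO/R + Lrg1-/- replicate 5 (adjusted p = 0.0546 to 0.277), with unbalanced neighbours (adjusted p = 0.0886) and with 15 components (2.47, adjusted p = 0.0905)). The sham call of Igfbp2 in pericytes was lost with at least 50 cells (3.22, adjusted p = 0.138). The change moved to 3.06 without sham + Lrg1-/- replicate 2, 4.75 without sham + WT replicate 2 and 4.59 with 15 components. Sham calls of Igfbp2 that were kept moved by over 1.5-fold in microglia (to 4.90 with doublets kept), oligodendrocytes (to 2.76 with unbalanced neighbours) and border-associated macrophages (to 2.70 with 15 components). The sham call of Igfbp2 in B cells was lost with 15 components (3.07, adjusted p = 0.129). The change moved to 3.87 with unbalanced neighbours. After MCAO/R kept calls moved in oligodendrocytes (to 3.28 with 15 components and 4.62 with doublets kept), in endothelial cells (to 3.36 without MCAO/R + Lrg1-/- replicate 1, 3.14 with 15 components and 2.84 with unbalanced neighbours) and neuronal lineage cells (to 3.19 without both Xist-positive libraries). For Igf2 after MCAO/R this was so in endothelial cells (to 1.84 without MCAO/R + Lrg1-/- replicate 1 and 1.956 without both Xist-positive libraries) and oligodendrocytes (to 2.94 without MCAO/R + Lrg1-/- replicate 1, 2.77 without both Xist-positive libraries and 2.73 with 15 components).

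Choroid plexus RNA moved with these calls. In each library, the Igf2 and Igfbp2 level that choroid plexus RNA alone would give was computed from the level of Ttr, the transthyretin gene that marks the choroid plexus, times the ratio of the gene to Ttr in the choroid plexus cells of that library. In sham + Lrg1-/-, the measured Igfbp2 level was within 1.5-fold of this value in 14 of 14 classes, with ratios of 0.685 to 1.31. In MCAO/R + Lrg1-/- it was within 1.5-fold in 14 of 18, against 4 of 15 in sham + WT and 1 of 14 in MCAO/R + WT. For Igf2 these counts were 9 of 14, 5 of 18, 1 of 15 and 0 of 14. Microglia of sham + Lrg1-/- had a mean of 90.7 CPM of Igfbp2 against 91.8 CPM from Ttr, and endothelial cells had 66.9 against 63 CPM. Astrocytes of sham + Lrg1-/- had 34.7 CPM of Igf2 against 35.3 CPM from Ttr. For Igf1r the measured level was at least 2.46-fold the value from Ttr in each class and group. With the expected choroid plexus UMIs taken off, the calls of Lrg1-/- against WT fell to 8 of 106 after sham surgery and 22 of 114 after MCAO/R, against 7.28 and 13.2% of all gene and class pairs, so that the share after sham surgery was close to the background. Those of MCAO/R against sham numbered 19 of 112 in WT and 21 of 109 in Lrg1-/- mice (7.74 and 10% of all pairs). Of the 8 and 5 genotype calls of Igfbp2 after sham surgery and MCAO/R, 0 then passed, and 2 and 2 of them turned in direction. For Igf2, 3 of the 6 calls after sham surgery and 1 of the 4 after MCAO/R that could still be tested passed, and in pericytes its difference moved to -2.77. Of the MCAO/R calls, those of Igfbp2 in microglia and B cells of Lrg1-/- mice and in smooth muscle of WT mice and that of Igf2 in smooth muscle of Lrg1-/- mice no longer passed. The UMIs taken off come from the same value from Ttr as the ratios above. The loss of Igfbp2 calls therefore restates those ratios and is no separate test. A class's own transcripts can also be taken off in this way. The part of choroid plexus RNA in these calls was not tested.

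**Figure D5:**
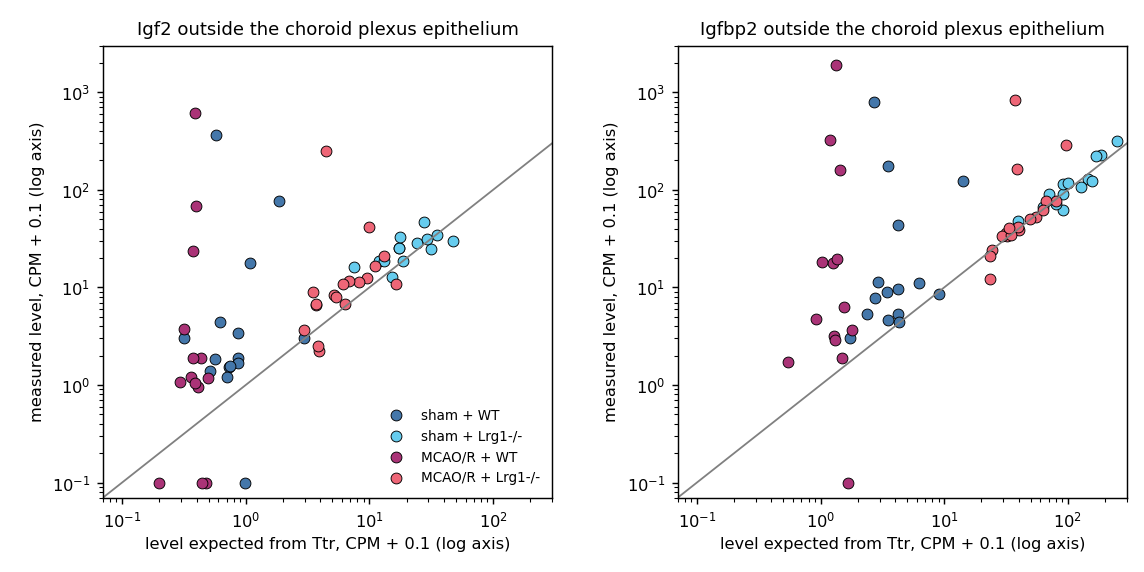
Measured mean level of Igf2 and Igfbp2 against the level expected from Ttr (both CPM + 0.1 on log axes) in each cell class other than the choroid plexus epithelium, with 1 point per class and group and a line of equality. For Igfbp2 the points of both Lrg1-/- groups lie to the right of all WT points, and all 14 sham + Lrg1-/- classes lie within 1.5-fold of the line.

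Within the choroid plexus itself, Igf2 fell after MCAO/R in Lrg1-/- mice, from 329.7, 357 and 329 CPM to 249.97, 194 and 155 CPM (log2 fold change -0.85, SE 0.19, adjusted p = 0.0266), with no overlap. WT mice had 258, 350.1 and 231 CPM and 346 and 267 CPM (0.02, SE 0.22, adjusted p = 0.983). The call was lost without any 1 of sham + Lrg1-/- replicates 1, 2 and 5 and MCAO/R + Lrg1-/- replicates 2 and 5 (adjusted p = 0.0533 to 0.123) and with 15 components (adjusted p = 0.0887). In the choroid plexus the interaction did not pass (-0.87, SE 0.29, adjusted p = 0.435). The remaining falls after MCAO/R were of Igfbp2 in vascular smooth muscle cells, from 40.0, 56.8 and 32.4 to 18.3 and 18.4 CPM in WT mice (-1.21, SE 0.36, adjusted p = 0.0399) and from 121, 102 and 46.3 to 58, 34.9 and 27.3 CPM with overlap in Lrg1-/- mice (-1.37, SE 0.30, adjusted p = 0.00871). Igf2 fell in the same cells of Lrg1-/- mice, from 24.6, 18.9 and 12.2 to 11.1, 8.69 and 4.04 CPM (-1.41, SE 0.33, adjusted p = 0.0111). For Igfbp2 the WT call was lost without any 1 of sham + WT replicates 1 and 2, sham + Lrg1-/- replicate 2 and MCAO/R + WT replicates 1 and 2 (adjusted p = 0.0567 to 0.177) and with doublets kept (adjusted p = 0.112). The Lrg1-/- call of Igfbp2 was lost without sham + Lrg1-/- replicate 1 (adjusted p = 0.0578) and with doublets kept (adjusted p = 0.0973). For Igf2 the call was lost without sham + Lrg1-/- replicate 1 (adjusted p = 0.0891). The fold moved to -2.26 without both Xist-positive libraries. Igfbp2 of Lrg1-/- mice also fell in B cells (-3.27, SE 0.41, adjusted p = 3.6e-05, 1 sham library), monocytes (-2.38, SE 0.51, adjusted p = 0.0414, 1 sham library) and microglia (-1.15, SE 0.36, adjusted p = 0.0309). The B cell call was lost with 15 components (-2.02, adjusted p = 0.406). It moved to -2.35 with unbalanced neighbours. The monocyte call was lost without any 1 of MCAO/R + Lrg1-/- replicates 2 and 5 (adjusted p = 0.112 to 0.141), without both Xist-positive libraries (adjusted p = 0.238), with the DESeq2 test (adjusted p = 0.0543) and with unbalanced neighbours (-0.85, adjusted p = 0.522). The microglial call was lost without any 1 of sham + WT replicate 1, sham + Lrg1-/- replicate 1 and MCAO/R + Lrg1-/- replicates 2 and 5 (adjusted p = 0.0516 to 0.174). The change moved to -1.84 without MCAO/R + Lrg1-/- replicate 1. The Igfbp2 level expected from Ttr fell alongside in Lrg1-/- mice, from a mean of 91.8 to 39.9 CPM in microglia (measured 90.7 and 38.8). It went from 247 to 32.3 CPM in B cells, from 91.6 to 23.4 in monocytes and from 69.9 to 33.3 in smooth muscle, where expected Igf2 went from 13.1 to 5.3. Its part in these falls was not tested.

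Of the 35 other genes of the IGF pathway (further binding and cleaving proteins, receptors for insulin and growth hormone, and members of the PI3K, AKT, mTOR and FOXO branches), 30 were tested in endothelial cells. There, 7 passed after MCAO/R in WT mice (6 higher, 1 lower) and 9 in Lrg1-/- mice (7 higher, 2 lower), against backgrounds of 16.9% and 23.8%. The counts are not far above these shares and are no result about the pathway. In Lrg1-/- endothelial cells MCAO/R raised the stanniocalcins Stc2 (4.69, SE 0.97, adjusted p = 0.00457) and Stc1 (2.79, SE 0.37, adjusted p = 0.00036), which inhibit pappalysins. It also raised the binding protein gene Igfbp1 (4.20, SE 1.02, adjusted p = 0.0102) and the mRNA-binding protein gene Igf2bp2 (1.42, SE 0.44, adjusted p = 0.0337), and it lowered the receptor adaptor gene Grb14 (-1.28, SE 0.18, adjusted p = 0.000421). Smaller rises included those of Shc1 (0.50), Grb10 (0.48) and the insulin receptor gene Insr (0.46).

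Lrg1-/- against WT after MCAO/R gave 10 of 30 in endothelial cells, a share close to the background of 33.9%, so that the count is no result about the pathway. Of the 10, Pik3r2, a regulatory subunit of PI3K, was higher (0.92) and 9 were lower. The lower genes included the transcription factor gene Foxo3 (-1.22, SE 0.17, adjusted p = 0.000438), Grb10 (-1.12), Insr (-0.73, SE 0.10, adjusted p = 0.000453) and the growth hormone receptor gene Ghr (-0.61), with the PI3K catalytic subunit genes Pik3cb (-0.59) and Pik3ca (-0.58), and the kinase genes Pdpk1 (-0.46) and Mtor (-0.43). Foxo3 was 123, 96.5 and 105 CPM in sham + WT, 47, 55.9 and 52 CPM in sham + Lrg1-/-, 99.6 and 112 CPM in MCAO/R + WT and 34.5, 46.5 and 59 CPM in MCAO/R + Lrg1-/-. It was thus lower in Lrg1-/- mice after sham surgery as well (-1.05, SE 0.16, adjusted p = 0.00231). In the sham comparison 5 of 30 passed, a share near the background of 14.5%, among them Pik3r2, which was higher (0.79), and Foxo3, Insr (-0.50) and Pik3cb (-0.55), which were lower. The WT and Lrg1-/- groups did not overlap for Foxo3 in either surgery group.

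Foxo3 and Insr were lower in Lrg1-/- than WT mice after MCAO/R in further classes with Igf1r calls. The counts in microglia, macrophages, the choroid plexus, smooth muscle and oligodendrocytes were near or below the share of all genes called there, so that they are no result about the pathway. In microglia 5 of 30 passed (background 22.5%), all lower, namely Foxo3 (-1.76), Insr (-0.92), the substrate gene Irs2 (-0.99), Foxo1 (-0.75) and Igfals, the acid-labile subunit of the plasma IGF complex (-2.17). In border-associated macrophages 6 of 24 passed (background 20.4%), all lower, with Foxo3 at -1.90, Irs2 at -1.86 and Insr at -1.07. Choroid plexus epithelial cells had 8 of 25 (29.1%), with Akt1 higher (0.73) and 7 lower, among them Ghr (-2.40) and Insr (-1.58). Vascular smooth muscle cells had 5 of 28 (14.5%), with Foxo3 (-0.88), Foxo1 (-0.80), Insr (-0.75) and Irs1 (-0.69) lower. The fifth was Pappa2, a protease of binding proteins, with 0 CPM in both MCAO/R + WT libraries and 9.67, 20.2 and 6.73 CPM in MCAO/R + Lrg1-/-. Oligodendrocytes had 6 of 29 (28.8%), with Akt1 higher (0.48) and 5 lower, among them Foxo3 (-0.85) and Insr (-0.59).

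In microglia, MCAO/R changed 6 of 30 pathway genes in WT mice (5 higher, 1 lower) and 6 in Lrg1-/- mice (2 higher, 4 lower), against backgrounds of 14.9% and 28.3%. These counts were near the share of all genes in WT mice and below it in Lrg1-/- mice, and are no result about the pathway. Akt1 (0.62 in WT and 0.56 in Lrg1-/- mice) and Pik3cb (1.05 and 1.08) rose in both genotypes. Grb10 (1.56), the serine protease gene Htra1 (1.93) and the cytokine-signalling inhibitor gene Socs2 (1.53) passed in WT mice. Foxo3 (-1.13), Insr (-0.82) and Irs2 (-0.57) passed, all lower, in Lrg1-/- mice.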

How the data were processed

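The deposited files hold UMI counts per gene and cell for each of the 11 libraries, made by the authors with Cell Ranger against mm10 (per the submitters' notes, with STAR as aligner) and not normalised. Cells with over 500 genes, over 1000 UMIs and under 25% mitochondrial UMIs were kept, and the 6% of cells with the highest doublet scores in each library were removed. Counts were log-normalised and clustered (30 principal components, 3 neighbours per library, Leiden resolution 1, leidenalg 0.10.2) without the 10 IGF genes. Clusters were named from marker lists, with at least 3 markers, and marker-poor clusters stayed unnamed.

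Raw UMIs were summed per library and class (at least 20 cells) and tested with edgeR 4.0.16 in R 4.3.3 (filterByExpr, TMM, quasi-likelihood fit over all 4 groups, adjustment over all genes of a class). Each mouse gave 1 library. The p-values weigh a difference against the spread between mice within groups, estimated jointly over all 4 groups and moderated across genes. Shares of cells with a UMI were taken after thinning to 1000 UMIs. In counts simulated for MCAO/R + WT against sham + WT, 4-fold changes were recovered for 66% of changed genes in endothelial cells (16257 genes) and 69% in microglia (18059 genes). For 2-fold changes these shares were 11% and 7%. The simulated means were pooled over all groups, with the same fixed spread for all genes and few changed genes. These shares therefore do not give the power in the real data. Depth per class sets the precision of low levels, and UMIs cover counting error only. Python 3.11.15 was used for the rest.

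The members, the marker lists and the list of 35 pathway genes were chosen with earlier results of these data known. The text names all 10 IGF genes in the 3 classes with the highest mean and wherever called, and pathway genes called in a class where a ligand or Igf1r was called. Values of 1 pathway gene are not reported here. The 22 alternatives were DESeq2 (1.42.0) size factors and test, no filter on low counts, doublets kept, under 10% mitochondrial UMIs, 15 components with resolution 0.3, neighbours without library balancing, at least 50 cells, a replicate block, each library left out, and 2 chosen after seeing the data, namely expected choroid plexus UMIs taken off and both Xist-positive libraries left out.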

Additional observations from a re-analysis of the deposited data

Results flagged for a closer look

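The effect of MCAO/R on Igf1r in endothelial cells differed between genotypes, with an interaction of -1.16 (SE 0.18, adjusted p = 0.00795) on the log2 scale. The level changed by 0.24 in WT mice and by -0.92 in Lrg1-/- mice, and lay at 1003, 973 and 1131 CPM in the 3 MCAO/R + Lrg1-/- libraries. The interaction did not pass within arterial cells (-0.88, adjusted p = 0.164) or the clusters of no single segment (-0.31, adjusted p = 0.777). Cluster 4 held most sham endothelial cells and cluster 3 most of those after MCAO/R.

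The effect of MCAO/R on Igfbp4 in vascular smooth muscle cells also differed between genotypes, with an interaction of -1.33 (SE 0.25, adjusted p = 0.0289). The level changed by 0.88 in WT mice and by -0.45 in Lrg1-/- mice. As given above, this interaction was lost when any of several single libraries was left out.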

How the results depend on the processing

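The cell class with the highest mean was the same for 10 of 10 IGF genes under the 16 alternatives in which it was recomputed. Without a filter on low counts, 42 of 140 and 46 of 150 pairs of IGF gene and class passed for MCAO/R in WT and Lrg1-/- mice, 50 of 140 and 55 of 150 for genotype after sham surgery and MCAO/R, and 8 of 120 for the interaction. Of all gene and class pairs, 5.78, 6.48, 7.29, 9.89 and 1.74% passed in this order. With expected choroid plexus UMIs taken off, 8 of 106 passed for genotype after sham surgery and 4 of 99 for the interaction (7.28 and 1.3% of all pairs), and Igfbp2 turned to -0.82 in border-associated macrophages and -0.86 in vascular smooth muscle cells after sham surgery, and to -1.2502 in border-associated macrophages and -2.43 in microglia after MCAO/R, none past the test. With 15 components and resolution 0.3, Igfbp7 in sham B cells turned to -0.49. Of the calls named, 30 were lost with the replicate block, 27 with choroid plexus UMIs taken off besides the 4 that turned, 25 with 15 components, 23 without library balancing and 10 with doublets kept. The interaction passed for 5 pairs with DESeq2 and with 15 components, and for 4 without library balancing and without both Xist-positive libraries, while 20 passed for genotype after MCAO/R without the latter.

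Leaving out each library gave 13 to 23 pairs for MCAO/R in WT mice, 11 to 34 in Lrg1-/- mice, 14 to 30 for genotype after sham surgery, 18 to 37 after MCAO/R and 1 to 7 for the interaction. The 11 came without sham + Lrg1-/- replicate 1, the 14 without sham + WT replicate 3, and 21 and 18 without MCAO/R + WT replicates 1 and 2. The cause of these changes was not tested, other than that fewer mice entered the fit.

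With the replicate block, 15 pairs passed for genotype after sham surgery and 0 for the interaction (Igf1r in endothelial cells, adjusted p = 0.0799). Deviations of libraries with the same number correlated at -0.291 to 0.035, so that the numbers give no pairing. With 2 or 3 mice a group, few changes of 2-fold were recovered in the simulated counts, although some changes under 2-fold passed in the data. A class with no library of at least 20 cells in a group gave no test there. Igfbp6 in macrophages and monocytes, with sham libraries at 0 to 2 UMIs, and Pappa2 in smooth muscle, at 0 in MCAO/R + WT, are given no fold.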
